A study of Homo sapiens with 9 samples.

Results

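A dose series with evenly spaced doses can be asked whether each gene followed the dose in a straight line. The genes described here are those whose level at the middle dose, 20 mM metformin, lay above or below the midpoint of the levels at 0 and 40 mM. The cells were A375, an established human melanoma line labelled as wild type, given 0, 20 or 40 mM metformin, and 3 libraries were made for each dose, 9 in all. All groups are the same line, dose is the difference the labels give, and the time of treatment is not stated. Whether the 3 libraries of a dose stem from separate cultures is not stated, so the p-values reflect library-to-library spread that may be only technical. Of 37118 genes listed, 12394 had a mean of at least 1 FPKM (fragments scaled by transcript length and library size) over the 9 libraries, and all 12394 were tested. Just inside this limit were STAP2 at 1.00101 and HOXD-AS2 at 1.00121 FPKM, and just outside it USP41 at 0.99976 and MAP6D1 at 0.99935.

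Metformin is a biguanide, an oral drug for diabetes, known to inhibit complex I in mitochondria. Stress on mitochondria, on the supply of amino acids or on protein folding is known to reach the translation factor eIF2, whose phosphorylation slows translation in general and favours translation of the transcription factor ATF4. ATF4 then switches on genes for amino acid synthesis, amino acid import and the charging of transfer RNA, and also genes such as CHAC1, TRIB3 and PPP1R15A that feed back on the response. A dose response on a log scale can be straight, can level off, can turn back at the higher dose or can begin at the higher dose alone.

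The departure of a gene is its log2 level at 20 mM minus the mean of its log2 levels at 0 and 40 mM, which equals 0.5 times the difference between the step from 0 to 20 mM and the step from 20 to 40 mM. It was above 0 in 6389 genes and below 0 in 6005, with a median of 0.0047. The scaling of the libraries centres them, so this near-even split was fixed by it and says nothing of how many genes were linear. At an adjusted p under 0.05, 847 genes (6.83%) departed from it, 509 (4.11%) above and 338 (2.73%) below the midpoint. At an unadjusted p under 0.05 there were 2849. A departure of at least 0.5 was seen in 82 of the 509 and 35 of the 338. For comparison, 3911 genes (31.6%) were called for the step from 0 to 20 mM, 3637 (29.3%) for the step from 20 to 40 mM and 6962 (56.2%) for 40 against 0 mM. Both steps use the 20 mM libraries, so they are not independent. Of the 6962 genes that differed between 0 and 40 mM, 622 (8.93%) departed from the line, and the median share of the whole change already present at 20 mM was 50.9%. Another 225 genes departed from the line without being called between 0 and 40 mM. On the linear FPKM scale the departure had the same sign in every called gene but 1, a slowing rise gene.

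**Figure D1:**
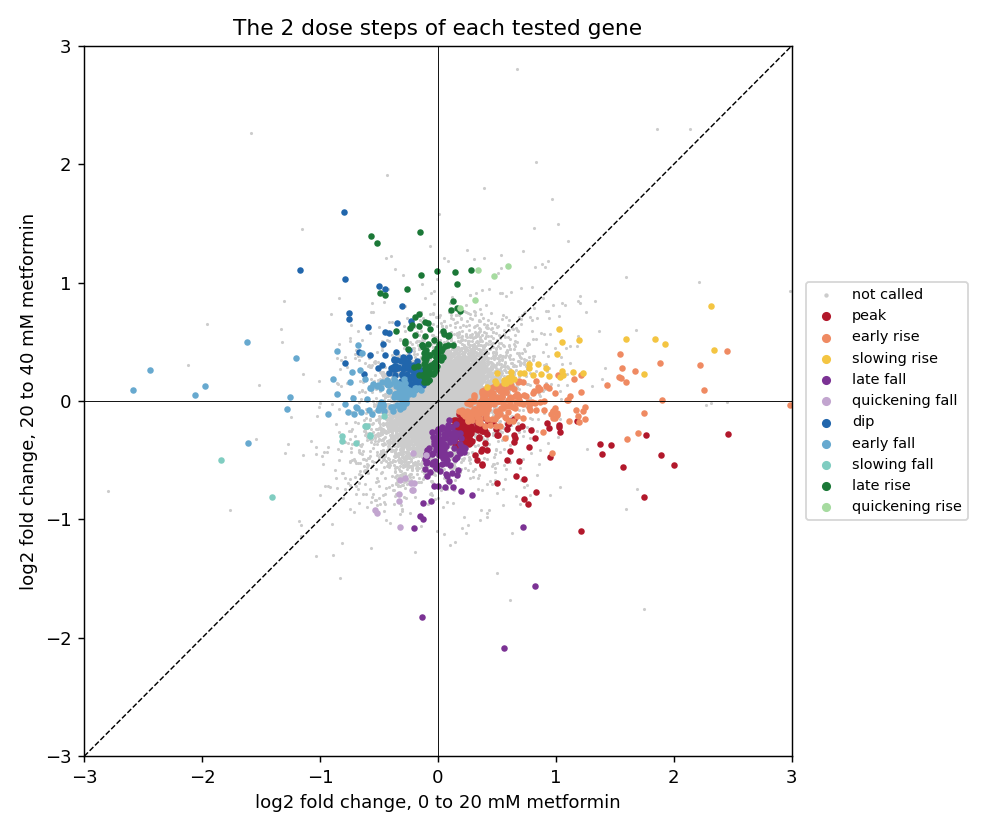
Log2 fold change of each tested gene from 0 to 20 mM (horizontal axis) against that from 20 to 40 mM (vertical axis), coloured by the class of the 847 genes called for the departure, with the other genes in grey and 13 genes beyond the axes left out. Genes on the dashed diagonal changed equally in both steps, those below it were above the midpoint at 20 mM, and those above it were below the midpoint.

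The called genes were sorted by which of the steps was itself called. Among the 509 above the midpoint, 130 rose and then fell (peak), 211 rose by 20 mM with no second call (early rise), 38 rose in both steps but less in the second (slowing rise), 117 fell only in the second step (late fall) and 13 fell in both, more in the second (quickening fall). Among the 338 below it, 104 fell and then rose (dip), 118 fell by 20 mM with no second call (early fall), 10 fell in both but less in the second (slowing fall), 101 rose only in the second step (late rise) and 5 rose in both, more in the second (quickening rise). A step that was not called is not shown to be flat. Of the peak genes, 81 were not called between 0 and 40 mM, 42 were still higher at 40 mM and 7 were lower. In the median peak gene the level was 0.31 above the untreated level at 20 mM and 0.04 above it at 40 mM, on the log2 scale. The median slowing rise gene had reached 76.9% of its whole change at 20 mM and the median quickening fall gene 28.3%.

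**Figure D2:**
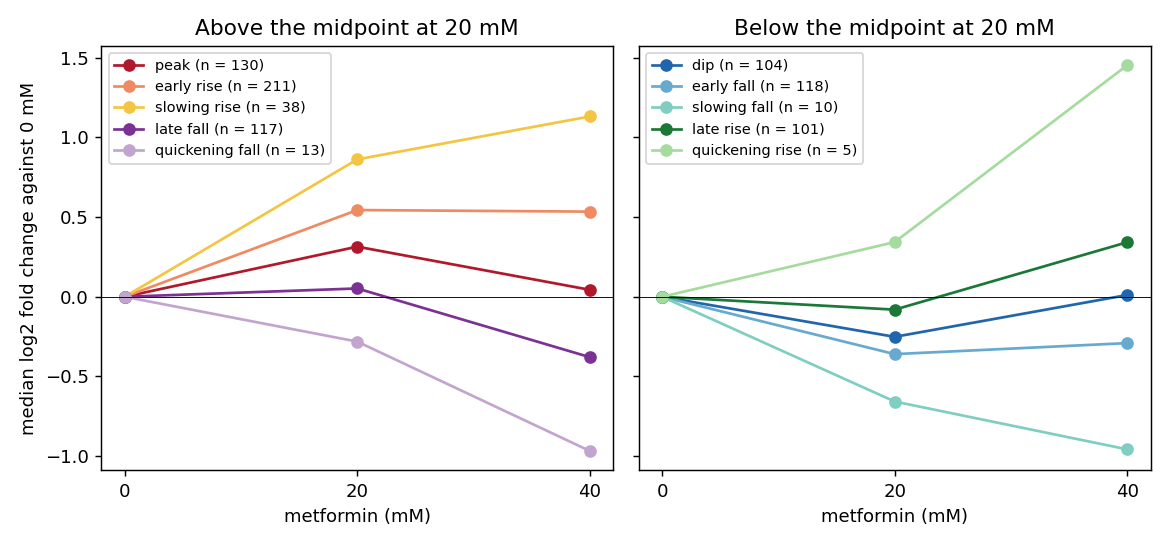
Median log2 fold change against 0 mM (vertical axis) at each metformin dose in mM (horizontal axis) for the 10 classes of called genes, with the number of genes in the key. The classes were made from these same fold changes, so the lines show what each name means and are no test.

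These counts fell most without replicate 2 or 3 of 20 mM. The departure sets the whole 20 mM mean against the average of the other doses. Leaving out a 20 mM library therefore costs more precision by design, and how far this lowers the counts was not tested. Without replicate 2 of 20 mM, 149 genes were called above and 30 below the midpoint, and without replicate 3 of 20 mM, which stood apart on the third principal component at -27.4 against -0.52 and -2.36, the counts were 166 and 42. Without replicate 1 of 20 mM they were 311 and 181. Leaving out a 0 mM library gave 306 to 417 above and 148 to 216 below. Replicate 3 of 40 mM stood apart on the second component, at -22.6 against 17.7 and 15.2, and its mitochondrial genes took 4.36% of its counts against 3.01% and 3.27%. Without it the counts were 914 and 750, and these held all 509 and all 338 of the calls made with it. Leaving out replicate 1 or 2 of 40 mM gave 412 and 431 above, 223 and 246 below. In every one of these fits all 847 departures kept their sign, but the calls came from these same libraries, so this is no independent support. The share of calls above the midpoint was 60.1%, against 49.3% with limma on log2(FPKM + 1) and 50.1% on log2(FPKM + 0.1). Library totals ran from 65738242 to 75629413 counts.

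The labelled cell type was checked by its markers. SOX10 (104 FPKM untreated, 97.7 at 20 mM and 85.5 at 40 mM), CSPG4 and MIA were present, while the pigment genes PMEL, MLANA, TYR and DCT lay under 1 FPKM in every library. The 13 markers of other cell types summed to 14.8 to 16.1 FPKM untreated, 21.8 to 25.4 at 20 mM and 31.3 to 38.1 at 40 mM, mostly from CD68, KRT14 and LUM, with PTPRC, CD3E and MS4A1 at or near 0. In bulk RNA, fewer cells of a type and less RNA per cell cannot be told apart.

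Promoter letters are shown first for 4 genes above the midpoint and 2 below it, from the gene groups with the most calls in each direction. Only windows that hold the marked letters could be shown, so a match in each was fixed by the choice. Where a gene had several windows, as ASNS with 2, the first one with a match was taken. Each line holds the 250 bases before the transcription start given by RefSeq (GRCh38.p14), 5′ to 3′ on the gene's own strand, in lower case. In ASNS (chr7:97872409-97872658, minus strand), CHAC1 (chr15:40953221-40953470, plus strand), AARS1 (chr16:70289507-70289756, minus strand) and IARS1 (chr9:92293698-92293947, minus strand) the capitals mark a match to TGATGNAA on either strand, the letters of the C/EBP-ATF response element that ATF4 is known to read. In HSPA1A (chr6:31815293-31815542, plus strand) and HSPA8 (chr11:123062137-123062386, minus strand) they mark GAANNTTC, a pair of inverted heat shock element units. The matches begin 68, 209, 187 and 13 bases before the start in the first 4 genes, 106 before it in HSPA1A, and 230 and 50 before it in HSPA8.
ASNS: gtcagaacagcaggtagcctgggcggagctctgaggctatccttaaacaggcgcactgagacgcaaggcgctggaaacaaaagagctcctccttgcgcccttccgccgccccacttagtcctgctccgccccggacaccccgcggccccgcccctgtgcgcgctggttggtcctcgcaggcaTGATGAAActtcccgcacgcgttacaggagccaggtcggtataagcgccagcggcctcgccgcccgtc
CHAC1: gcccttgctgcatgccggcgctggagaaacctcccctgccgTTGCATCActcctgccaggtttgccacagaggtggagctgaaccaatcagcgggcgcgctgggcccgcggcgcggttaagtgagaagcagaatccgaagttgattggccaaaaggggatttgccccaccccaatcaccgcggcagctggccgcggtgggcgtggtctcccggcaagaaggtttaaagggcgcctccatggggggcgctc
AARS1: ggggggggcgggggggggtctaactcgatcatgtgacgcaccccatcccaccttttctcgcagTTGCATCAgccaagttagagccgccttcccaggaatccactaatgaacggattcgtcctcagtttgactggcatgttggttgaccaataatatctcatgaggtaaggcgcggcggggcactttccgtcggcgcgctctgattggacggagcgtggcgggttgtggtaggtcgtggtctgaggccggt
IARS1: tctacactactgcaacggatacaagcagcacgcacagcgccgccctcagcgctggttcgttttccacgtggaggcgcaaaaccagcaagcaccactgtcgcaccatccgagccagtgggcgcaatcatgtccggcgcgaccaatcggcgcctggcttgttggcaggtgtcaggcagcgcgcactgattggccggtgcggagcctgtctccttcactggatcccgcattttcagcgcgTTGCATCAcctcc
HSPA1A: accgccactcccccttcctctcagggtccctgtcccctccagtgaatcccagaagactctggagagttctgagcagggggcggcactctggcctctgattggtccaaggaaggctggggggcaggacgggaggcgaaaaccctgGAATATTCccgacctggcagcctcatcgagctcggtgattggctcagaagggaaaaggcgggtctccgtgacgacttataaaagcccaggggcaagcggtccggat
HSPA8: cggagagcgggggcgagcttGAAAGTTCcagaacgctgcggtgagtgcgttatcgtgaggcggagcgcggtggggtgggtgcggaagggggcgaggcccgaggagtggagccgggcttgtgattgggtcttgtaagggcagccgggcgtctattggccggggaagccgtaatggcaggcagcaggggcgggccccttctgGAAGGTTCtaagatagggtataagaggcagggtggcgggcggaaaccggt

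RefSeq windows from 250 bases before to 50 after a start were matched by symbol for 8885 tested genes with 12858 windows, some genes having several overlapping ones. TGATGNAA stood in a window of 2.59% of these genes (1.94% of the windows, and 3.62% of all 35116 windows of the table). It was found in 15 of 95 peak genes (15.8%), 16 of 162 early rise genes (9.88%) and 3 of 30 slowing rise genes, against 2 of 91 late fall, 4 of 85 dip, 1 of 100 early fall and 3 of 76 late rise genes. Among the ATF4 targets with a window it was in 8 of 30, and among the cytosolic aminoacyl-tRNA synthetases in 7 of 16. ATF4 targets are partly known by such elements, so this is no independent finding. GAANNTTC was in 12 of 20 heat shock genes (60.0%), 12 of 100 early fall genes and 6.48% of tested genes. The early fall genes with it include the heat shock genes HSPA8, HSPA1B, DNAJA1 and HSP90AA1, so these shares are not separate. The pentamer CCAAT was in 17 of 19 cholesterol synthesis genes (89.5%) and 44.2% of tested genes. TCACCCCAC, scanned as a sterol element, was in 1 of these 19 (5.26%) and 0.529% of tested genes. TGACNNNGC, scanned as an antioxidant element, was in 11 of 30 ATF4 targets (36.7%) and 19.4% of tested genes. TTTGGCGC, an E2F site, was in 6 of 91 late fall genes (6.59%) and 1.45% of tested genes. Further patterns were scanned and are not reported here, so the ones given are a choice. None of TGATGNAA, GAANNTTC, CCAAT and TTTGGCGC contains another, a match is only a run of letters, and no test was made of these shares.

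Genes of the ATF4 response were the group furthest above the midpoint. Of 37 tested targets, 31 were called above it and 0 below, against 4.11% and 2.73% of all tested genes, and 35 of 37 departures were above 0. Their median departure was 0.67, against 0.0047 for all tested genes. Of the 31, 13 were peak genes, 14 early rise genes and 4 slowing rise genes. With the synthetases, they made up 29 of the 82 genes with a departure of at least 0.5. These targets are a list known to move in these cells, so their direction is a description. The count was 30 to 32 in the fits that each left out a library.

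CHAC1 (ENSG00000128965), an enzyme that breaks down glutathione, was at 4.44, 4.59 and 5.07 FPKM in the untreated libraries, 23.3, 26.4 and 28.0 at 20 mM, and 23.2, 21.0 and 21.1 at 40 mM. The 3 doses did not overlap, although the lowest library at 20 mM lay close to the highest at 40 mM. It rose by 2.46 ± 0.08 (SE) in the first step and fell by 0.28 ± 0.07 in the second, a departure of 1.37 ± 0.06 (adjusted p = 1.9e-06). ASNS, which makes asparagine, was at 14.6, 15.9 and 15.98 FPKM untreated, 54.4, 63.7 and 68.3 at 20 mM, and 44.0, 45.7 and 41.5 at 40 mM. Every library at 20 mM was above every library at 40 mM. Its departure was 1.27 ± 0.06 (adjusted p = 2.1e-06), with a fall of 0.54 ± 0.07 in the second step. PCK2, the mitochondrial enzyme that makes phosphoenolpyruvate, turned back further: it was at 3.33, 3.47 and 3.55, then 10.1, 11.8 and 13.1, then 6.52, 6.58 and 7.19 FPKM. The second step of PCK2 was -0.81 ± 0.09, and its departure 1.28 ± 0.07 (adjusted p = 3.4e-06).

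Enzymes of serine and folate metabolism were also among the peaks. ALDH1L2, a mitochondrial folate enzyme, had a departure of 1.17 ± 0.05, PSAT1 of serine synthesis 0.92 ± 0.06, and the mitochondrial folate enzymes MTHFD2 and SHMT2 0.65 ± 0.04 and 0.46 ± 0.03. PSAT1 was at 95.2 to 99.2 FPKM untreated, 239 to 269 at 20 mM and 170.3 to 206 at 40 mM. PHGDH, the first enzyme of serine synthesis, rose in the first step by 1.19 ± 0.04 and its second step of -0.12 ± 0.04 was not called (adjusted p = 0.056), so that it counted as an early rise. Transsulfuration, which makes cysteine, included CBS (departure 0.92 ± 0.09, peak) and CTH (0.98 ± 0.08, early rise). CBS shares reads with its near-identical copy CBSL (1.06 ± 0.10), so the level of each is uncertain. SESN2, a stress-induced brake on mTORC1, was a peak with a departure of 0.87 ± 0.06.

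ATF4 itself had a smaller peak than most of its targets. It was at 114, 123 and 123 FPKM untreated, 179, 182 and 183 at 20 mM, and 157, 159 and 169.7 at 40 mM. The doses did not overlap. The departure was 0.40 ± 0.04 (adjusted p = 0.00013), with a first step of 0.59 ± 0.04 and a second of -0.20 ± 0.04. SLC7A11, which imports cystine and is a target of both ATF4 and NRF2, was at 12.4, 12.3 and 13.05 FPKM untreated, 27.1, 29.8 and 28.9 at 20 mM, and 27.3, 26.1 and 24.7 at 40 mM. Its libraries at 20 and 40 mM overlapped in FPKM, and its fall in the second step was small (0.17 ± 0.05, adjusted p = 0.027), beside a departure of 0.67 ± 0.04.

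In the 14 early rise targets the second step was not called. TRIB3, a pseudokinase that restrains ATF4, was at 24.2, 24.4 and 23.1 FPKM untreated, 81.6, 91.3 and 95.3 at 20 mM, and 97.4, 93.4 and 85.6 at 40 mM. The treated doses overlapped, and the second step was 0.01 ± 0.06, beside a departure of 0.94 ± 0.05. GDF15, a stress hormone that lowers appetite, was at 3.15, 2.06 and 1.72 FPKM untreated, 11.6 to 13.7 at 20 mM and 14.8 to 19.8 at 40 mM, without overlap between doses, but its second step of 0.42 ± 0.18 was not called (adjusted p = 0.10). ADM2, a peptide hormone, had a departure of 1.51 ± 0.08, and NIBAN1, a stress-induced protein, 0.93 ± 0.05, both as early rises.

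The 4 slowing rise targets rose again between 20 and 40 mM. DDIT3, the transcription factor CHOP, was at 9.49, 8.42 and 8.28 FPKM untreated, 39.0, 42.8 and 51.6 at 20 mM, and 58.2, 70.0 and 55.0 at 40 mM. Its doses did not overlap, and the steps were 2.34 ± 0.12 and 0.43 ± 0.11, a departure of 0.96 ± 0.09 (adjusted p = 0.00018). NUPR1, a small stress-induced chromatin protein, went from 0.210 to 0.337 FPKM untreated to 3.28 to 3.56 and then 5.02 to 5.41, with the highest departure of the list, 1.59 ± 0.10. The glycine carrier SLC6A9 (0.76 ± 0.05) and PPP1R15A (0.42), which brings phosphatase to eIF2, were the others. CHAC1, ASNS, PCK2 and ATF4 fell in the second step, in which these 4 rose.

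**Figure D3:**
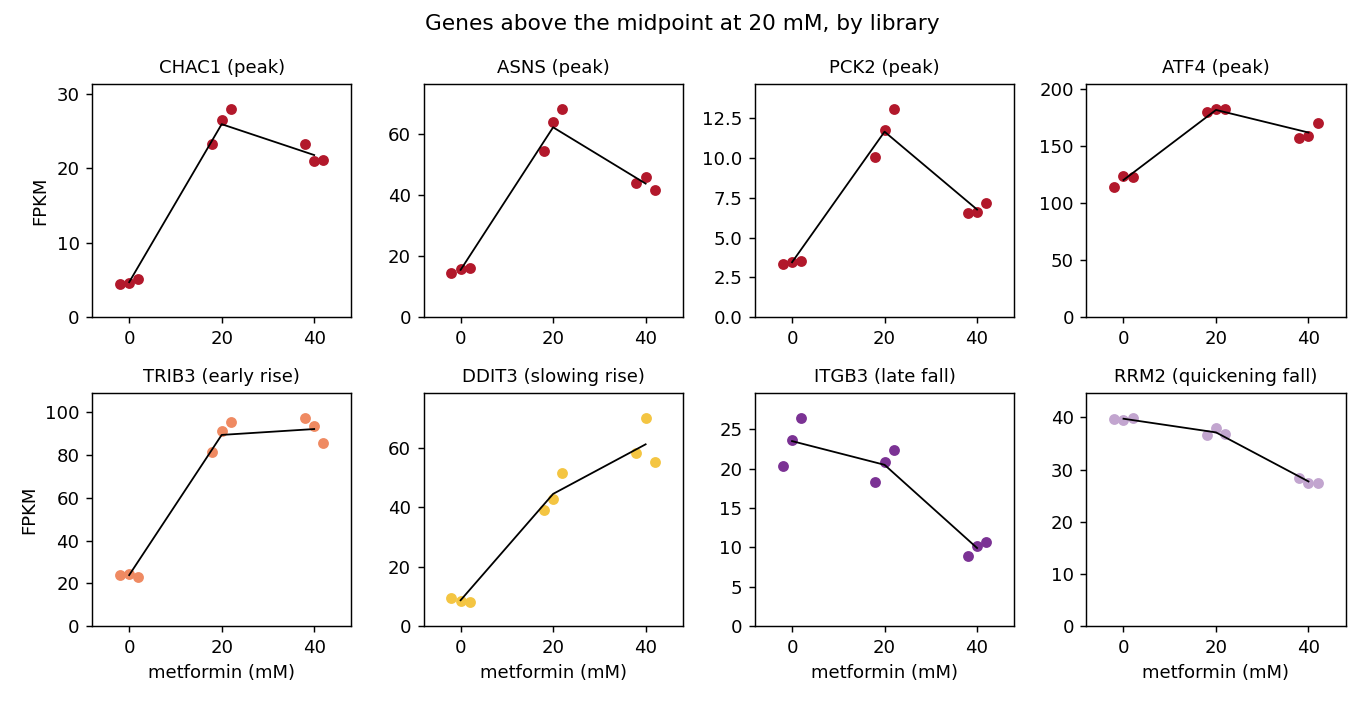
FPKM (vertical axis, from 0) at each metformin dose in mM (horizontal axis) for 8 genes above the midpoint at 20 mM, with 1 point per library and a line through the means of 3. CHAC1, ASNS, PCK2 and ATF4 turn down at 40 mM, TRIB3 is about as high at both doses, DDIT3 goes on rising, and ITGB3 and RRM2 drop mostly at 40 mM.

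Cytosolic aminoacyl-tRNA synthetases, which load amino acids on transfer RNA, had 12 of 20 tested members called above the midpoint and 0 below, with a median departure of 0.30. Over all tested genes 4.11% were called above and 2.73% below. Of the 12, 9 were peaks, 2 early rises and 1 (FARSB) a late fall. SARS1, for serine, was at 32.8, 34.7 and 32.7 FPKM untreated, 55.3, 59.6 and 63.2 at 20 mM, and 49.9, 49.9 and 47.2 at 40 mM. No doses overlapped, and its departure was 0.57 ± 0.04 (adjusted p = 2.9e-05). IARS1, for isoleucine, was at 42.1, 43.0 and 43.2, then 51.3, 54.6 and 55.4, then 38.1, 39.8 and 38.9 FPKM. Its level at 40 mM was below the untreated level by 0.17 ± 0.04 (adjusted p = 0.0038), so the rise at 20 mM was followed by a larger fall. GARS1 (0.57 ± 0.04) and WARS1 (0.57 ± 0.07) were the early rises. Over the 20 members, 12 rose and 5 fell in the first step, and 0 rose and 14 fell in the second. The other 8 had departures from -0.09 to 0.12. Left-out libraries gave counts of 11 to 13.

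Amino acid transporters were mixed, with 7 of 19 above the midpoint and 2 below, against 4.11% and 2.73% of all tested genes. SLC1A5, a glutamine carrier, rose from 81.8 to 85.7 FPKM untreated to 146 to 151 at 20 mM and was at 145 to 153 at 40 mM, a departure of 0.42 ± 0.03. The 2 below were the glutamate carrier SLC1A3 (-0.30 ± 0.06), which rose mainly at 40 mM, and the cationic amino acid carrier SLC7A6 (-0.20), a dip. Neither was called without replicate 2 or 3 of 20 mM, and SLC1A3 then had an adjusted p of up to 0.076. Of the fits with 1 library left out, SLC7A6 was called only in that without replicate 3 of 40 mM.

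VEGFA was an early rise. It encodes an angiogenic growth factor, is a known target of hypoxia factors and ATF4, and was at 4.77, 4.60 and 4.41 FPKM untreated, 10.04, 9.82 and 9.83 at 20 mM, and 10.4, 9.96 and 10.2 at 40 mM. The treated libraries spanned less than 1 FPKM, and the departure was 0.55 ± 0.04 (adjusted p = 1.0e-05). It was the single member of 17 hypoxia genes above the midpoint, and 1, the histone demethylase KDM3A, was below (-0.21 ± 0.06, lost without any 1 of 7 libraries). XBP1, a factor of the unfolded protein response, had a departure of 0.43 ± 0.04, while the chaperones CANX (-0.16 ± 0.04) and CALR (-0.14) of that list were below. In all, 2 of its 21 members were called above (XBP1 and, at 0.20 ± 0.05 and as a slowing rise, HERPUD1 of protein degradation) and 2 below, against 4.11% and 2.73% of all genes. The call of HERPUD1 was lost without any 1 of 7 libraries (adjusted p up to 0.17). None of the calls below in that list was made with any 1 library left out except replicate 3 of 40 mM, where 6 were. PMAIP1, the pro-death protein NOXA, had a departure of 0.53 ± 0.07, and the metallothionein MT2A, which binds zinc, 0.35 ± 0.06. S100P, a calcium-binding protein, had a wide spread, with 7.14, 10.96 and 13.3 FPKM at 20 mM (1.08 ± 0.24, adjusted p = 0.024, and up to 0.14 with 1 library left out). BEST1 had a departure of 2.09 ± 0.36, but it overlaps FTH1 on the other strand and its libraries ran from 6.53 to 17.3 FPKM at 40 mM, so its level is uncertain. CD68, a slowing rise (0.54 ± 0.12), listed among markers of immune cells and also a lysosomal protein, was at 3.64 to 4.38, 10.8 to 12.9 and 15.0 to 22.1 FPKM. Its call was lost without any 1 of 7 libraries (adjusted p up to 0.12), and PTPRC, CD3E and MS4A1, which mark blood cells, were at or near 0.

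Late falls had no called first step and fell between 20 and 40 mM. ITGB3, an integrin subunit, was at 20.4, 23.7 and 26.5 FPKM untreated, 18.3, 20.9 and 22.4 at 20 mM, and 8.87, 10.2 and 10.7 at 40 mM. The first 2 doses overlapped and the third lay below both, with steps of -0.20 ± 0.10 and -1.08 ± 0.10 and a departure of 0.44 ± 0.09 (adjusted p = 0.015). IDH2, the mitochondrial isocitrate dehydrogenase that makes NADPH, was at 4.38, 4.62 and 4.36, then 4.11, 4.55 and 4.19, then 2.27, 2.27 and 2.78 FPKM. It was the 1 called gene of 23 in the list of the citric acid cycle, with a departure of 0.39 ± 0.09 (adjusted p = 0.024). That count is near the 4.11% of all tested genes called above the midpoint. GTF2H3, a subunit of the transcription and repair factor TFIIH, had a departure of 0.37 ± 0.06, and ORC3 of the origin recognition complex 0.43 ± 0.10. The call of GTF2H3 held with each library left out. The call of ITGB3 was lost without replicate 2 or 3 of 20 mM (adjusted p up to 0.096), that of ORC3 without 4 libraries (up to 0.14) and that of IDH2 without 6 (up to 0.13), the 3 at 20 mM among them. UBBP4 (0.48 ± 0.08) is a pseudogene of the ubiquitin gene UBB, and its call was lost without replicate 2 or 3 of 20 mM (adjusted p up to 0.058). The call of C2orf74 (0.41 ± 0.10) was lost without any 1 of 7 libraries (up to 0.14).

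Few genes of DNA replication and mitosis were called for the departure. Of 37 replication genes, 26 fell in the first step and 26 in the second, while 3 were called above the midpoint and 1 below, against 4.11% and 2.73% of all genes, with a median departure of 0.01. RRM2, a subunit of ribonucleotide reductase, was at 39.8, 39.5 and 39.9 FPKM untreated, 36.6, 38.0 and 36.8 at 20 mM, and 28.4, 27.4 and 27.4 at 40 mM. Its doses did not overlap, and the steps were -0.10 ± 0.04 and -0.45 ± 0.04 (departure 0.18 ± 0.03, adjusted p = 0.0087). GINS1 of the replicative helicase had a departure of 0.21 ± 0.05. MCM5, also of that helicase, was the 1 below, at -0.14. Of 30 genes of mitosis, CDK1 (0.22 ± 0.05) and TOP2A (0.14 ± 0.03) were called, as late falls, and 23 of 30 departures were above 0. Without replicate 3 of 40 mM, 8 of the 30 were called above the midpoint, and without any 1 of the 20 mM libraries or replicate 2 of 0 mM 0 were. The call of RRM2 was lost without replicate 2 of 20 mM (adjusted p = 0.076), and those of CDK1 (up to 0.11), TOP2A (up to 0.15) and GINS1 (up to 0.13) without 4 or 5 libraries each.

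Dips had a median departure of -0.26, and 89 of 104 ended where no difference from 0 mM was called. ID3, an inhibitor of basic helix-loop-helix factors and a target of BMP signals, was at 18.6, 18.7 and 18.4 FPKM untreated, 12.5, 10.6 and 9.85 at 20 mM, and 18.3, 18.3 and 19.9 at 40 mM. All libraries at 20 mM lay below all others, while 0 and 40 mM overlapped. The steps were -0.76 ± 0.08 and 0.74 ± 0.08, the whole change was -0.01 ± 0.08, and the departure was -0.75 ± 0.07 (adjusted p = 0.00018). Its relatives were ID2 (-1.20 ± 0.18, a dip at 0.510 to 2.08 FPKM) and ID1 (-0.32 ± 0.05, an early fall). TNFSF9, the ligand of the T cell receptor 4-1BB, was at 12.9, 10.8 and 9.02 FPKM untreated, 8.66, 7.69 and 7.72 at 20 mM, and 17.5, 15.9 and 13.8 at 40 mM. The doses did not overlap, the level at 40 mM was above the untreated level by 0.49 ± 0.13, and the departure was -0.70 ± 0.11 (adjusted p = 0.0067, and 0.052 without replicate 2 of 20 mM). PLK2, a stress-induced kinase, was at 17.7, 17.1 and 15.2, then 10.4, 9.79 and 8.88, then 14.1, 12.1 and 11.1 FPKM. It did not come back to its untreated level (whole change -0.46 ± 0.09), with a departure of -0.56 ± 0.08 (adjusted p = 0.0034). NEFL, a neurofilament subunit (-0.34 ± 0.06), and ANGPTL2, a secreted angiopoietin-like protein (-0.34 ± 0.06), were also dips, and their calls were lost without replicate 2 or 3 of 20 mM (adjusted p up to 0.072 and 0.083).

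Heat shock genes, which encode chaperones that hold and refold proteins, lay below the midpoint: 8 of 22 were called below it and 0 above, and 0 of 22 departures were above 0. The shares over all tested genes were 2.73% below and 4.11% above. The median departure was -0.12. HSPA1A, the inducible HSP70, was at 94.4, 83.5 and 76.6 FPKM untreated, 67.1, 49.6 and 43.4 at 20 mM, and 77.8, 67.5 and 72.6 at 40 mM. The 20 mM libraries were the lowest, although 67.1 lay just under 67.5, and the other doses overlapped. The departure was -0.54 ± 0.12 (adjusted p = 0.025). Its near-identical copy HSPA1B, whose reads cannot be fully told apart from it, had -0.53 ± 0.13 and is an early fall only because its second step of 0.41 ± 0.14 missed the threshold (adjusted p = 0.054). HSPA8, the constitutive HSP70, was at 791, 777 and 718, then 526, 461 and 426, then 478, 477 and 439 FPKM. It fell by 0.70 ± 0.07 in the first step, and its second step of -0.05 ± 0.07 was not called, a departure of -0.32 ± 0.06. HSPH1, DNAJA1, DNAJB1, HSP90AA1 and HSP90AB1 were the others, at -0.14 to -0.28. DESeq2 also called 8 below and 0 above, limma called 7 and 0, and at unadjusted p under 0.05 there were 12 and 0. Without replicate 2 of 20 mM 1 heat shock gene was called, likewise without replicate 3, and without replicate 1 or 2 of 0 mM 5, with adjusted p for HSPA1A and HSPA8 of up to 0.13 and 0.087. The small heat shock protein HSPB8 lies outside that pattern of falls, as a late rise (-0.42 ± 0.10) from 2.34 to 2.45 FPKM untreated to 5.69 to 6.95 at 40 mM, a call lost without 6 libraries.

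Cholesterol synthesis, driven by SREBP2, had 5 of 25 members called below the midpoint and 0 above, with a median departure of -0.11. The shares of all tested genes were 2.73% below and 4.11% above. HMGCS1, which makes HMG-CoA, was at 12.0, 10.7 and 10.6 FPKM untreated, 7.86, 6.74 and 6.54 at 20 mM, and 10.4, 8.89 and 6.63 at 40 mM. The first step did not overlap, but the 40 mM libraries spread over the range between, with replicate 3 the lowest. Its departure was -0.46 ± 0.12 (adjusted p = 0.043, and 0.0018 to 0.19 with 1 library left out). IDI1 (-0.31 ± 0.07), the sterol-sensing brake INSIG1 (-0.27 ± 0.06), and SQLE (-0.26 ± 0.06) were also called. The calls of HMGCS1, IDI1 and INSIG1 were lost without 8, 5 and 8 libraries in turn (adjusted p up to 0.189, 0.145 and 0.156). Without replicate 3 of 40 mM 10 members were called. With any other single library left out 0 to 4 were, 0 of them without replicate 2 of 20 mM. DESeq2 called 8 below and 1 above, and limma 4 and 0. The 17 genes of fatty acid synthesis had 0 calls with edgeR and limma, 3 with DESeq2 and 4 at unadjusted p under 0.05.

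Targets of p53 split, with 4 of 19 below and 2 above the midpoint, against 2.73% and 4.11% of all genes, and a median departure of -0.17. CDKN1A, the cell cycle inhibitor p21, was at 34.6, 33.2 and 30.8 FPKM untreated, 28.2, 26.1 and 23.8 at 20 mM, and 35.8, 31.1 and 30.5 at 40 mM. The 20 mM libraries lay below all others, and the departure was -0.31 ± 0.07 (adjusted p = 0.022, up to 0.13 with 1 library left out). BTG2 (-0.33 ± 0.09), ZMAT3 (-0.27) and DDB2 (-0.22) were the others below, and PMAIP1 and GADD45A (0.26) those above. The nucleolar proteins NOP2, which methylates ribosomal RNA (-0.33 ± 0.07), and LYAR (-0.17 ± 0.04) were dips and the 2 called of 30 genes of ribosome biogenesis. The call of LYAR was lost without any 1 of the 20 mM libraries and that of NOP2 without replicate 3 of 20 mM (adjusted p up to 0.13 and 0.068). Without replicate 2 or 3 of 20 mM, 0 of the p53 targets were called below.

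Among early falls with large departures were SAT1, which acetylates polyamines (9.18, 8.88 and 8.11 FPKM untreated, 4.94, 5.23 and 5.41 at 20 mM, 6.34, 5.68 and 5.75 at 40 mM). The untreated libraries lay above all treated ones, and the departure was -0.45 ± 0.07 (adjusted p = 0.0041). LYPD1, a membrane protein that damps nicotinic receptors (-0.46 ± 0.09), SHISA2, an inhibitor of FGF and WNT receptors (-0.41 ± 0.07), and the corepressor TLE4 (-0.37 ± 0.05) were early falls too. SAT1 and TLE4 were called with each library left out, while SHISA2 was lost without replicate 3 of 20 mM (adjusted p = 0.059) and LYPD1 without replicate 2 or 3 of 20 mM (up to 0.11). The slowing falls TIMP3, an inhibitor of matrix proteases (-0.17 ± 0.04), SERTAD4 (-0.24 ± 0.06), TOE1 (-0.20 ± 0.05) and the checkpoint adaptor CLSPN (-0.20 ± 0.05) fell in both steps. Their calls were lost without 2, 7, 5 and 6 libraries in turn, replicates 2 and 3 of 20 mM always among them (adjusted p up to 0.12, 0.16, 0.12 and 0.15).

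Late rises had no called first step and rose between 20 and 40 mM. EGR1, an immediate early transcription factor, was at 2.34, 3.23 and 2.99 FPKM untreated, 1.63, 2.08 and 2.08 at 20 mM, and 4.002, 4.64 and 6.92 at 40 mM. The libraries did not overlap, although the first step of -0.56 ± 0.20 was not called (adjusted p = 0.052), and the second was 1.39 ± 0.20. Its departure was -0.98 ± 0.18 (adjusted p = 0.011, up to 0.054 with 1 library left out). IL7R, a cytokine receptor, was at 4.86, 4.22 and 3.75, then 4.21, 3.67 and 3.18, then 6.30, 6.05 and 5.33 FPKM (-0.43 ± 0.10). LYPD3 (-0.55 ± 0.14), a surface protein, and NR1D1 (-0.40 ± 0.09), a repressor of the circadian clock, were of the same class, and the calls of IL7R, LYPD3 and NR1D1 were lost without 6, 6 and 5 libraries, replicates 2 and 3 of 20 mM among them (adjusted p up to 0.16, 0.19 and 0.13). H2AC18 and H2AC19 (-0.67 ± 0.17 and -0.70 ± 0.17) are near-identical histone genes that share reads, and their calls were lost without 7 libraries each.

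Only 5 genes were quickening rises, and with 1 library left out the class held 0 to 21. CCN1, a matrix protein and target of YAP, was at 12.6, 11.9 and 11.2 FPKM untreated, 18.7, 17.6 and 17.6 at 20 mM, and 44.1, 38.7 and 39.0 at 40 mM. The doses did not overlap, and the steps were 0.59 ± 0.06 and 1.14 ± 0.06 (departure -0.28 ± 0.06, adjusted p = 0.017, up to 0.098 with 1 library left out). SPP1, the secreted protein osteopontin, had steps of 0.34 ± 0.10 and 1.11 ± 0.10, and AQP3, a water and glycerol channel, 0.47 ± 0.07 and 1.06 ± 0.07. The call of CCN1 was lost without replicate 2 or 3 of 20 mM, and those of SPP1 and AQP3 without 5 and 4 libraries (adjusted p up to 0.13).

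**Figure D4:**
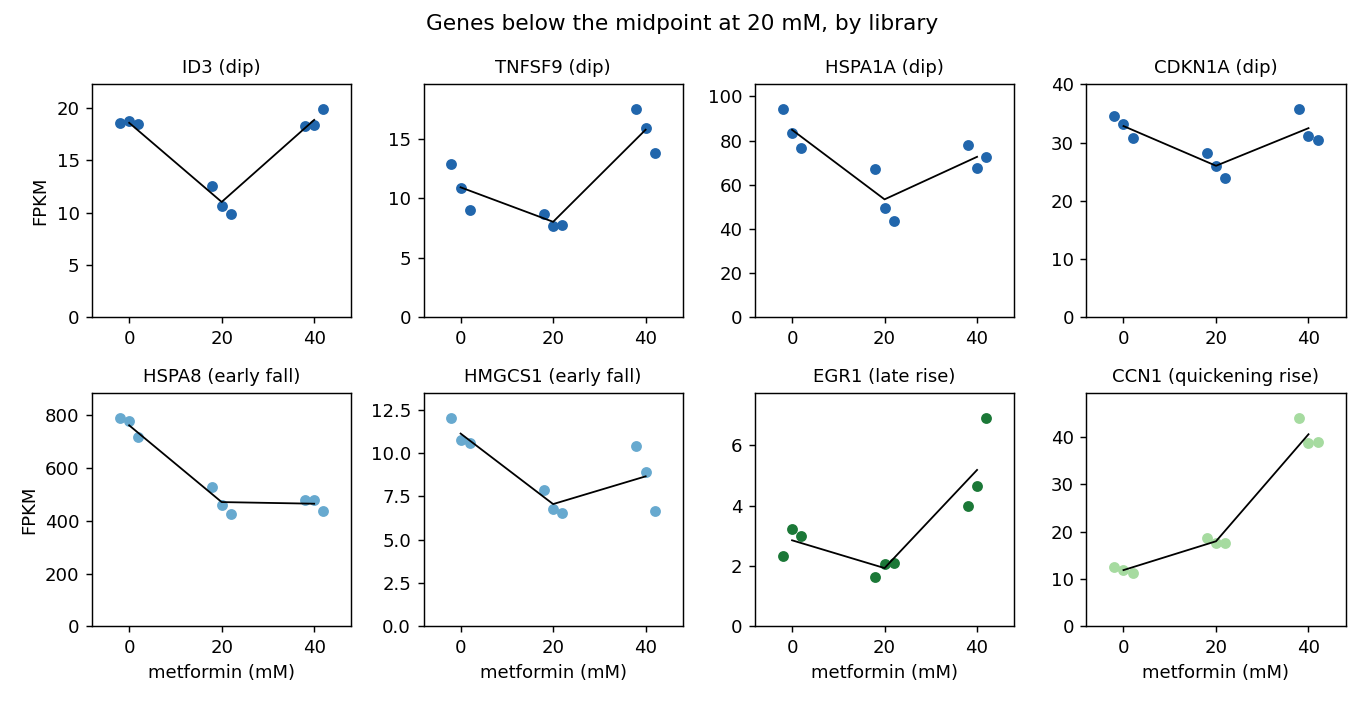
FPKM (vertical axis, from 0) at each metformin dose in mM (horizontal axis) for 8 genes below the midpoint at 20 mM, with 1 point per library and a line through the means of 3. ID3, TNFSF9, HSPA1A and CDKN1A are lowest at 20 mM, HSPA8 is low at both doses, HMGCS1 spreads at 40 mM, and EGR1 and CCN1 rise mostly at 40 mM.

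Genes of ferroptosis, the iron-dependent death by lipid peroxidation named in the study's title, are given against 4.11% of all genes above and 2.73% below the midpoint. In the defence list 3 of 27 were above and 0 below (3 and 1 with DESeq2, 5 and 3 at unadjusted p under 0.05): SLC7A11, the glutathione transferase MGST1 (0.21 ± 0.04, a slowing rise) and the glutathione synthetase GSS (0.27 ± 0.05, a late fall). The call of MGST1 was lost without any 1 of the 20 mM libraries (adjusted p up to 0.068) and that of GSS without replicate 2 or 3 of 20 mM (up to 0.076). GPX4, the peroxidase that reduces lipid hydroperoxides, was at 27.8 to 29.7, 29.0 to 31.0 and 28.7 to 31.6 FPKM, overlapping at all doses, with a departure of 0.04 ± 0.04 (adjusted p = 0.65). In the promotion list 3 of 18 were above (CHAC1, SLC38A1 and SLC1A5) and 2 below (SAT1 and POR). ACSL4, the ligase that activates arachidonic acid for membrane lipids, was at 8.93 to 10.1, 7.21 to 8.01 and 4.76 to 5.47 FPKM and fell in both steps, with a departure of 0.16 ± 0.06 that was not called (adjusted p = 0.14). Departures of the heme oxygenase HMOX1 (-0.29 ± 0.28, adjusted p = 0.58), the thioredoxin inhibitor TXNIP (-0.30 ± 0.14, 0.21), the ferritin heavy chain FTH1 (0.06 ± 0.06, 0.62) and the transferrin receptor TFRC (-0.01 ± 0.06, 0.94) were not called either. HMOX1 was at 116, 58.4 and 43.0 FPKM at 40 mM. Iron handling had 4 of 22 above, the heme synthesis enzymes FECH and PPOX, the mitochondrial iron importer SLC25A37 and the iron chaperone PCBP1, and 0 were called if 20 mM replicate 1 or 2, or 0 mM replicate 1 or 3, was left out, or with limma.

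The share of counts on the mitochondrial genome was 2.76% to 3.53% untreated, 3.63% to 3.77% at 20 mM and 3.01% to 4.36% at 40 mM, and its part in the departures of mitochondrial genes was not tested. MT-CYB, a subunit of complex III, was at 1131, 1409 and 1575 FPKM untreated, 1820.4, 1980.3 and 2020.3 at 20 mM, and 982, 1116 and 1583 at 40 mM. The 20 mM libraries were the highest, and the departure was 0.59 ± 0.13 (adjusted p = 0.025). MT-ND4 of complex I had 0.44 ± 0.11, and these were the 2 called of 13 mitochondrial protein genes. Shares over all tested genes were 4.11% above and 2.73% below the midpoint. Without replicate 3 of 40 mM, the library with the largest mitochondrial share, 7 were called, and without any 1 of the 20 mM libraries 0, as also without replicate 2 of 0 mM or of 40 mM. DESeq2 called 2 of the 13 and limma 0. Of 22 mitochondrial tRNA genes, 20 departures were below 0 and 7 were called below. Transfer RNAs lack the poly(A) tails by which the libraries were captured, so these values describe what the capture let through. The 43 nuclear genes of the respiratory chain had a median departure of 0.06, with 0 called by edgeR and limma, 2 by DESeq2 and 7 at unadjusted p under 0.05. NDUFB5, a subunit of complex I, came nearest (0.22 ± 0.06, adjusted p = 0.051).

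The remaining lists had 0 to 3 calls each, where 4.11% of all tested genes were called above the midpoint and 2.73% below. Counts this small are not read as results about the lists, and the genes named stand for themselves alone. Of 32 lysosome and autophagy genes, 21 rose in the first step and 18 in the second, and 2 departed from the line: CTSB, a lysosomal protease (0.14 ± 0.03), and MAP1LC3B, a coat protein of autophagosomes (0.20 ± 0.05). The 27 NRF2 targets had 1 called, SLC7A11. Of 26 splicing factors, 19 fell in the first step and 14 in the second, and HNRNPA1 alone departed (0.11 ± 0.03), a call lost without any 1 of 7 libraries (adjusted p up to 0.18). MAPK output and immediate early genes had 2 of 23 above (PHLDA1, 0.21 ± 0.03, and ETV5, 0.21 ± 0.05) and 1 below (EGR1). Integrins and matrix had ITGB3 and ITGA5 (0.22 ± 0.05) above and TIMP3 below, of 25. Glycolysis and the pentose phosphate path had PFKFB4 (0.17 ± 0.04) above and PFKFB3 (-0.26 ± 0.06) below, 2 isoforms of the enzyme that sets fructose 2,6-bisphosphate. The clock genes had NFIL3 (0.32 ± 0.07) above and NR1D1 below, of 12. The 10 NF-kB and inflammatory genes, 18 interferon-stimulated genes and 8 melanocyte lineage genes had 0 called by edgeR and limma (3, 2 and 1 by DESeq2, and 6, 4 and 2 at unadjusted p under 0.05), IL1A (0.57 ± 0.16, adjusted p = 0.068), ISG20 (0.24 ± 0.07, 0.051) and CSPG4 (0.14 ± 0.04, 0.054) coming nearest. Of the called genes in these lists, PHLDA1 and SLC7A11 were called with each library left out, and all others here were lost without replicate 2 or 3 of 20 mM.

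**Figure D5:**
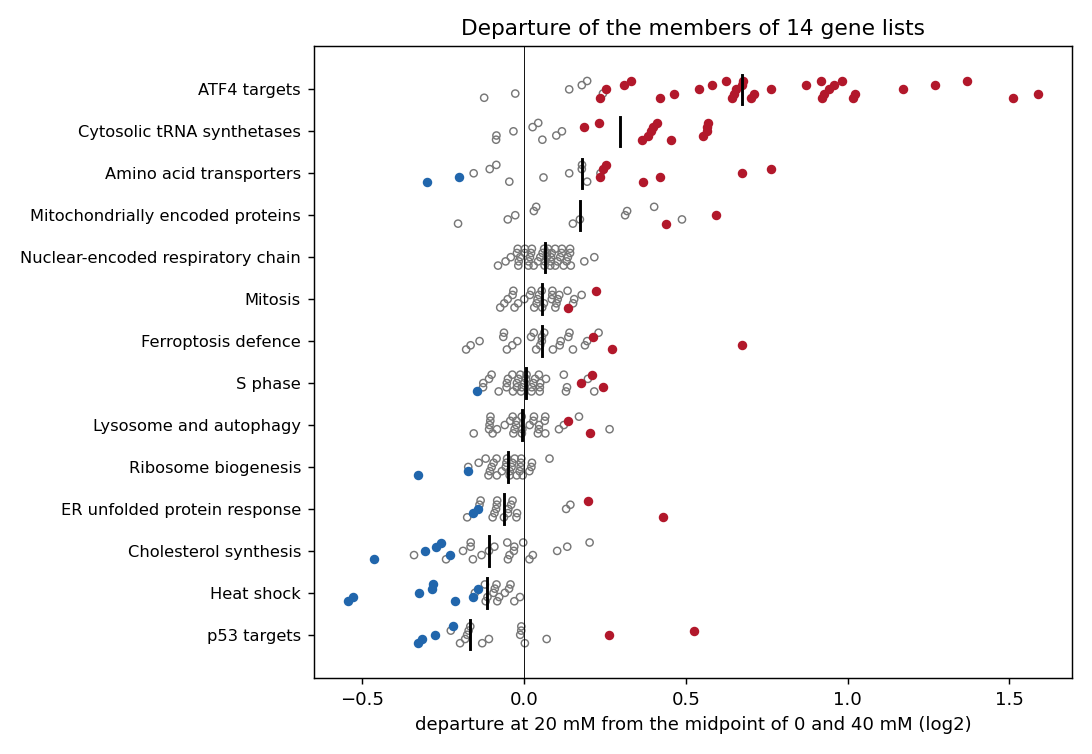
Departure of each tested member of 14 of the 31 gene lists (horizontal axis, log2), with filled red points called above the midpoint, filled blue points called below it, open points not called and a black bar at each list's median. The ATF4 targets reach 1.59 and have a median of 0.67, and the heat shock genes all lie below 0.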

How the data were processed

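Per the labels' protocols, poly(A) RNA was captured with oligo(dT) beads and strand-specific dUTP libraries were sequenced paired-end. The deposited table gives read counts and, in other columns, FPKM for every gene and library, as its header says. StringTie 2.1.6 is named in the submitters' processing notes. The aligner, the build and the strand setting were not given in the sources used here.

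Counts were tested with edgeR 4.0.16 (quasi-likelihood, TMM scaling, 9 libraries in 1 fit, R 4.3.3) for genes whose FPKM averaged 1 or more. A call is an adjusted p (Benjamini-Hochberg over 12394 genes) under 0.05, and rose and fell refer to calls. SE is the log2 change over the square root of its F. The fit was tested on simulated data. Library totals were 65738242 to 75629413 counts.

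The genes, the 31 lists and the tests were chosen with earlier results of these data known. Genes named by class are called ones with a mean of 5 FPKM or more at some dose and no overlap across their called steps. They are the 8 largest peaks and dips, 6 largest early and late rises and falls and 3 largest of each class with both steps called. Named without these limits were up to 3 called members of each list or, where none was called, the 1 with the smallest p. So were ATF4, DDIT3, SLC7A11, GPX4, ACSL4, HMOX1, TFRC, TXNIP and FTH1. Small RNAs, readthrough, antisense and clone symbols were only counted. Other names were picked after their values were seen, and some genes of the rule are not reported here. Alternatives were median of ratios or total scaling, no filter or 5 FPKM, DESeq2 1.42.0, limma 3.58.1, a replicate block, p under 0.01 and each library left out.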

Additional observations from a re-analysis of the deposited data

How the results depend on the processing

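All 847 calls kept their sign under every alternative that measured them. The alternatives reuse the libraries that gave the calls, so the kept signs are no independent support. Of the 98 called genes named here, 34 were called under every alternative that measured them, 30 above the midpoint and 4 below (ID3, PLK2, SAT1 and TLE4). Reversals came in genes not called: FTH1 went from -0.0079 (20 mM replicate 1 left out) to 0.0930, and TFRC from -0.0518 to 0.0177, being above 0 at 0.0078, 0.0057, 0.0177 and 0.0056 when 0 mM replicate 1, 20 mM replicate 3, or 40 mM replicate 1 or 2 was left out. Counts moved by over 1.5 times as follows, except where a smaller change is stated. Of each range given, at least 1 end moved that far. The cause was not tested. DESeq2 called 816 above and 628 below, with 330 early rises, 236 late falls, 261 early falls and 191 late rises. At adjusted p under 0.01 there were 169 and 39, with 39 peaks, 97 early rises, 21 late falls, 10 dips, 18 early falls and 11 late rises, and 2167 and 1858 genes for the steps. Without the filter, where more genes share the correction, 293 and 92 were called, with 69 peaks, 52 late falls, 33 dips, 34 early falls and 25 late rises. With 5 FPKM, fewer genes were tested: 4245 differed between 0 and 40 mM, 2517 and 2367 in the steps, and 68 were dips. With limma 69 genes, or 70 with a pseudocount of 0.1, were late falls. The 2 gave 344 and 355 above, 354 and 353 below, a change of less than 1.5 times. Library totals alone gave 461 and 389, also a change of less than 1.5 times. Left-out libraries gave 149 to 914 above and 30 to 750 below, 2408 to 4065 for the second step, 43 to 206 peaks, 81 to 365 early rises, 11 to 248 late falls, 14 to 192 dips, 10 to 313 early falls, 6 to 195 late rises, 13 to 61 slowing rises, 1 to 34 quickening falls, 0 to 21 quickening rises and 0 to 29 slowing falls. These last 4 classes, of 38, 13, 5 and 10 genes, held 60, 30, 16 and 20 with DESeq2, 17, 2, 0 and 0 without the filter and 10, 2, 0 and 0 at adjusted p under 0.01. With the replicate number as a block, 647 were called above and 445 below, again a change of less than 1.5 times. Quickening rises then numbered 16. Deviations of same-numbered libraries correlated at -0.10 to 0.19 and those of differently numbered ones at -0.19 to 0.12. These ranges overlap and do not settle whether the numbers pair samples, and the main fit did not use the numbers. PLK2, IL7R, HMGCS1, HSPA8 and CDKN1A were lower in each later replicate at every dose. Whether a shared replicate effect lies behind this was not tested. What lower depth would do was not tested.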
